A study of Mus musculus with 6 samples.

Results

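The circRNA arrays of this study carried 50 probes for linear transcripts alongside their circRNA probes, and these 50 are described here. They were all probes with an ID starting A_51, out of 14330 non-control probes on the array, 14236 of which were circRNA probes. Each linear probe was printed on 10 spots and each circRNA probe on 1 spot. The 6 arrays held nucleus accumbens (NAc) RNA from adult male mice (strain C57BL6 in the labels, C57Bl/6J in the study's methods), 3 after cocaine conditioned place preference (CPP, replicates 2, 3 and 4) and 3 saline controls (replicates 1, 5 and 6). Per the study's methods the mice were 2 months old at CPP and were killed 1 h after the preference test. The series' design counts 3 mice a group. The RNA of both groups had been digested with RNase R before random-primed labelling, and no array of undigested RNA was analysed here. The signals below are therefore what remained after digestion, and the share of each transcript that the enzyme removed cannot be given.

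RNase R is a bacterial exoribonuclease that digests RNA from a free 3′ end. A messenger RNA is open at both ends and is a substrate, whereas a circRNA has no end and resists. Digestion is used to enrich circRNAs, and linear messages with stable structure near the 3′ end can be digested incompletely. The NAc is part of the ventral striatum and takes part in reward learning. In conditioned place preference a mouse comes to prefer a chamber paired with a drug.

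Of the 50 linear probes, 44 had a RefSeq accession that the mouse gene table named, and 6 are given by probe ID. All 50 probe names had 1 accession each, and 1 of them, for Rps4l, was of the noncoding type. None of 44 neuron markers, 24 striatal neuron markers, 27 microglia and immune markers, 18 vascular and blood markers, 74 markers of other tissues or 24 immediate early genes was among the linear probes. The labelled tissue could therefore not be checked with neuronal markers on these probes. Apoe from the astrocyte list, Mbp from the oligodendrocyte list and Actb from the housekeeping list were present. The scanner files gave no probe sequences for the linear probes. Whether any of them also reads a circRNA of the same gene was therefore not tested.

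The arrays differed in brightness. The upper quartile of the circRNA probes ranged from 109 units on cocaine CPP replicate 3 to 317 units on control replicate 5, and the other 4 arrays lay between 172 and 296. Signals are given below in scanner units after the scanner software subtracted background, or as log2 signal relative to the circRNA upper quartile of the same array. On the relative scale a value of 0 means as bright as the circRNA upper quartile. Probes differ in affinity, so these values rank brightness and not abundance. All arrays were on 1 slide and came from 1 scan. Slide row 1 held all 3 control arrays plus cocaine CPP replicate 2, and row 2 held the other 2 cocaine CPP arrays. Precision is limited by having 3 arrays a group. No linear spot was saturated.

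Most linear probes still gave signal after RNase R. A probe was counted as above background on an array where a share above 0.5 of its usable spots was well above background by the scanner software. By that count 39 of the 50 linear probes (78%) were above background on all 6 arrays, against 10983 of the 14236 circRNA probes (77.1%). A further 8 linear probes were above background on 3 to 5 arrays, 2 on 1 array each and 1 on none. Per array, 47, 39 and 48 of the 50 were above background on cocaine CPP replicates 2, 3 and 4, and 46, 48 and 45 on control replicates 1, 5 and 6. The dimmest array, cocaine CPP replicate 3, also had the lowest share of circRNA probes above background, 77.8% against 87.8% to 93.2% on the others.

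Set against the negative controls themselves, fewer linear probes stood clear on all 6 arrays. For the negative control spots this rested on control replicate 1. The 77 negative control spots of each array had a median of 1.33 to 1.85 units. Their highest spot reached 104.8 units on control replicate 1, where the second highest read 6.65, and between 1.40 and 9.99 units on the other 5 arrays. Above the highest negative control spot of the array lay 20 of the 50 linear probes (40%) on all 6 arrays, against 44.7% of circRNA probes. With control replicate 1 set aside 42 linear probes did, and the circRNA share over those 5 arrays was not computed. Above the mean plus 3 SD of these spots lay 27 linear probes (54%), against 67.6% of circRNA probes. That limit was 38.5 units on control replicate 1, where 27 linear probes passed. On each of the other 5 arrays 44 to 50 passed. The arrays also carry 15 probes named MM9NEGATIVE, whose target the files do not state. Of these, MM9NEGATIVE015, MM9NEGATIVE016 and MM9NEGATIVE017 were above background on every array. The brightest MM9NEGATIVE probe of an array read 40.0 to 57.2 units, and 18 linear probes (36%) exceeded it on all 6 arrays, against 38.5% of circRNA probes. A further 14 linear probes exceeded it on some arrays and 18 on none. The 18 linear probes above it on all 6 arrays are thus separated from every negative probe of that name on the slide, and the 18 never above it are not.

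The linear probes spanned a wide range of brightness. On the relative scale their means over the 6 arrays ran from 4.93 for Olfr166 to -6.21 for Bambi. Bambi was not above background on any array, so its value is not a measured level. In scanner units the brightest probe of an array read 3291 to 11515 and the dimmest 1.55 to 5.09. Above the circRNA upper quartile lay 12 probes on all 6 arrays, and 36 lay below it on all 6. Between 42% and 46% of the linear probes were brighter than the median circRNA probe of their array. After digestion the linear set thus included 9 probes brighter than at least 92.9% of the circRNA probes of every array, as well as probes at the level of the negative control spots.

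The order of the probes was close between arrays. Over the 50 probes Spearman's rho was 0.925 to 0.958 for the 3 pairs of cocaine CPP arrays, 0.955 to 0.975 for the 3 pairs of control arrays and 0.947 to 0.983 for the 9 pairs across groups. Pearson's r of log2 signal over the same pairs was 0.962 to 0.973, 0.985 to 0.986 and 0.966 to 0.989. These correlations are across probes, which are not independent replicates and keep their affinities from array to array, and are given as a description. Pairs across groups reached values as high as pairs within a group.

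The probes are described below in groups by role that were made after values were seen, so a group's brightness is no finding about the role. The nervous system genes were spread over bright and dim probes, with means from -4.30 to 4.15. Of 6 such probes, 5 were above background on all 6 arrays and 2, Apoe and Mbp, were above the circRNA upper quartile on all 6. Apoe, a lipid carrier made mainly by astrocytes in brain, read 5870, 2151 and 2944 units after cocaine CPP and 5375, 5308 and 3285 units in control mice. Relative to the circRNA upper quartile this was 4.31, 4.30 and 3.56 against 4.39, 4.06 and 4.26 (log2). The groups overlapped, and the lowest value was that of cocaine CPP replicate 4.

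Mbp, a structural protein of myelin made by oligodendrocytes, read 3697, 1099 and 1260 units after cocaine CPP and 2127, 2790 and 1622 units in control mice. The relative values were 3.64, 3.33 and 2.34 against 3.05, 3.14 and 3.24 (log2). The control arrays lay close together (SD 0.094), and the cocaine CPP arrays included both the highest and the lowest value. In bulk tissue fewer cells of a type and less RNA per cell cannot be told apart. How completely RNase R had digested this message on each array was not tested either.

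The 4 other nervous system probes were dimmer than the circRNA upper quartile on all 6 arrays. Chgb, a granin of dense-core vesicles, ranged from -1.52 to -0.46. Kcnn2, a calcium-activated potassium channel, was at -1.91 on cocaine CPP replicate 2 and between -3.59 and -2.73 on the other 5 arrays. Gabrg1, a subunit of the GABA-A receptor, read -3.87, -3.86 and -4.78 in cocaine CPP and -5.23, -4.67 and -3.37 in control, and was above background on 4 arrays. None of these messages was among the 10 brightest probes.

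Of 8 probes for genes of metabolism and redox control, 7 were above background on all 6 arrays. Gamt, which makes creatine, read 1.74, 1.75 and 1.99 after cocaine CPP and 1.59, 1.87 and 1.90 in control mice. Gpi1, an enzyme of glycolysis, read 1.73, 1.35 and 0.80 against 1.73, 1.65 and 1.46. Both were above the circRNA upper quartile on all 6 arrays, as was Ppara, a nuclear receptor for fatty acids, which ranged from 0.03 to 1.03.

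Prdx2, a peroxide-reducing enzyme, crossed the circRNA upper quartile, with values from -0.62 to 0.29. Pex11a, a protein of peroxisome division, lay between -1.04 and -0.75. Cpt1a, which admits fatty acids to mitochondria, lay between -1.73 and -0.56, with its lowest value on cocaine CPP replicate 4. The dimmest of the group were Acaa2, a thiolase of fatty acid oxidation, at -3.21, -3.12 and -3.23 against -2.82, -3.12 and -3.02, and Gsta4, a glutathione transferase, at -4.04 to -2.96. Gsta4 was not above background on cocaine CPP replicate 3.

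Among 9 probes for genes known mainly from other tissues or cell types, 8 were above background on all 6 arrays, and 3 were above the circRNA upper quartile on all 6. Olfr166, an olfactory receptor, read 11515, 3291 and 6071 units after cocaine CPP and 6529, 10958 and 5543 units in control mice. Its relative values were 5.28, 4.91 and 4.61 against 4.67, 5.11 and 5.01. It was the probe with the highest mean, and it exceeded 97.6% to 97.7% of the circRNA probes of each array.

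Duox1, an oxidase that produces hydrogen peroxide in thyroid and airway, read 4.94, 4.34 and 4.79 in the cocaine CPP mice, against 3.99, 5.07 and 4.52 in the controls. Lhx1, a developmental transcription factor of the LIM homeobox family, read 4.22, 4.37 and 4.23 against 3.51, 4.45 and 4.29. For both, the lowest value was that of control replicate 1, and the other 5 arrays of Lhx1 lay between 4.22 and 4.45. Whether these probes read the named transcript or another RNA was not tested.

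The other tissue-restricted probes were dimmer. Olfr1307, also an olfactory receptor, ranged from -0.13 to 1.005 around the circRNA upper quartile. Hspb7, a small heat shock protein of heart and muscle, read -1.62, -1.22 and -0.62 in cocaine CPP and -2.23, -1.44 and -1.27 in control. Its groups overlapped. Spats1, a testis gene, ranged from -3.03 to -1.45, Mzb1 of B cells from -2.86 to -2.43 and Il2, a T cell cytokine, from -3.23 to -2.70. Tyr, the enzyme that starts melanin synthesis, was above background on cocaine CPP replicate 4 alone, at 11.5 units, and was not well above background on the 5 other arrays, at 1.87 to 5.09 units.

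Of 7 probes for cytoskeleton and membrane traffic, 6 were above background on all 6 arrays. Tm9sf1, a membrane protein of endosomes, read 4.30, 3.74 and 4.16 after cocaine CPP and 3.66, 4.39 and 3.97 in control mice. Actb, the cytoplasmic actin used as a housekeeping control, read 3.41, 2.55 and 3.45 against 3.36, 3.77 and 3.03. In scanner units Actb ranged from 639 on cocaine CPP replicate 3 to 4318 on control replicate 5, and the groups overlapped. Actb has near-identical copies in the genome, and whether its probe also binds their RNA was not tested.

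The remaining members of that group were below the circRNA upper quartile on all 6 arrays. Anxa8, an annexin, lay at -0.79 to -0.30 and Atg3, an enzyme of autophagy, at -2.02 to -1.41. Cav2, a caveolin, was at -1.82 on cocaine CPP replicate 2 and at -3.68 to -2.58 elsewhere. Rab5a, a GTPase of early endosomes, ranged from -4.46 to -3.39. Cep41, a centrosome protein, was the most variable probe tested, at -3.31, -5.71 and -4.38 in the cocaine CPP mice, against -4.23, -3.86 and -3.82 in the controls, and it was not above background on cocaine CPP replicate 3.

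Another 5 probes were grouped under nucleus, RNA and translation, a grouping that leaves out Lhx1 and Ppara, which were described with other groups. None of the 5 was above the circRNA upper quartile on all 6 arrays. E2f1, a transcription factor of the cell cycle, read -2.89, -2.59 and -2.07 after cocaine CPP and -3.72, -2.86 and -2.67 in control mice. Carhsp1, an RNA-binding protein, read -2.96, -2.57 and -3.15 against -2.31, -2.62 and -2.62. For E2f1 control replicate 1 was lowest, and for Carhsp1 it was highest.

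Nup50, a nuclear pore protein, ranged from -3.55 to -2.92 and Taf1a, a factor for ribosomal RNA transcription, from -4.03 to -2.74, with the signal on cocaine CPP replicate 3 not above background. Rps4l, a ribosomal protein S4-like gene, was at 11.7, 8.47 and 13.6 units in the cocaine CPP mice, against 9.76, 8.30 and 9.58 units in the controls. Its values thus stayed within a narrow span although the brightness of the arrays differed by 2.90 times.

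The other 9 named genes had no member above the circRNA upper quartile on all 6 arrays. The brightest was Alkbh4, a dioxygenase, and it was also the steadiest probe of the 47 tested, at -1.03, -1.03 and -1.13 after cocaine CPP and -1.06, -1.06 and -0.99 in control mice. H2-Q7, a class I histocompatibility gene with close paralogs, lay at -1.91 to -1.35, and Hyal3, a hyaluronidase, at -2.94 to -2.31. Lhfp read -1.69, -2.003 and -3.77 against -2.73, -2.90 and -2.75, and Uhrf1bp1l read -3.34, -3.45 and -4.17 against -3.28, -3.76 and -2.77. In both, cocaine CPP replicate 4 had the lowest value of the 6 arrays.

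Gsdmd, the pore-forming gasdermin D, read 33.4, 30.8 and 44.7 units in the cocaine CPP mice, against 29.7, 35.1 and 31.3 units in the controls. Dnajc11, a DnaJ protein of mitochondria, read -4.57, -5.62 and -4.55 on the relative scale against -4.49, -4.23 and -4.00 and was not above background on cocaine CPP replicate 3. Trp53rka, a kinase gene, read 16.3, 1.76 and 11.02 units against 10.8, 12.5 and 4.42 units and was above background on 4 arrays. Bambi, a decoy receptor of the TGF-beta family, read 6.29, 1.81 and 2.29 units against 3.01, 5.57 and 1.55 units and was not well above background on any array.

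The 6 probes without a symbol were as spread as the named ones. A_51_P284125 read 4.82, 3.996 and 5.23 after cocaine CPP and 3.43, 5.12 and 4.48 in control mice. A_51_P191463 read 3.85, 3.71 and 3.48 against 3.57, 3.61 and 3.71. These 2 were among the 10 brightest probes, and the second varied far less than the first. A_51_P237746 read -3.80, -2.40 and -2.87 against -3.84, -3.78 and -2.22, high on 1 control and 2 cocaine CPP arrays. In scanner units it read 21.2, 20.7 and 34.1 against 17.9, 23.2 and 36.9, so cocaine CPP replicate 3 was high on the relative scale only. A_51_P425205 had a mean of -3.31. A_51_P444920 read 10.6, 5.09 and 13.6 units against 9.30, 10.7 and 6.66 units and was above background on 4 arrays. A_51_P213099 read 6.75, 1.74 and 6.75 units against 1.95, 7.66 and 1.81 units, was above background on control replicate 5 alone and is given no fold change.

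Differences between arrays were larger than differences between spots. The SD over the 10 spots of a probe within an array had a median of 0.060 to 0.071 log2 over the probes above background. The SD of a probe over the 6 arrays had a median of 0.38 log2 over the 47 probes tested, and it exceeded the spot SD for 46 of 47. Alkbh4 was the exception, with 0.046 over arrays and 0.053 over spots. Of the 12953 circRNA probes tested, the median SD over the 6 arrays was 0.31. For probes above background on all 6 arrays the medians were 0.34 for 39 linear probes and 0.29 for 10983 circRNA probes, with the linear probes more spread in both sets. Without cocaine CPP replicate 4 the order turned, with 0.27 for linear and 0.28 for circRNA probes tested, and 0.24 and 0.26 for those above background on all 6 arrays. With any other array left out the linear median was the higher one.

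The spread was uneven over the arrays. On cocaine CPP replicate 4, 11 of the 39 probes lay more than 0.5 log2 below their own mean over the arrays (28.2%, against 10.7% of circRNA probes). They were Lhfp, Cav2, Mbp, Rab5a, Uhrf1bp1l, Cpt1a, Gpi1, Apoe, Prdx2, Chgb and Kcnn2, with deviations from -1.13 for Lhfp to -0.55 for Kcnn2. On the same array Spats1, Hspb7, E2f1, A_51_P284125 and Olfr1307 lay more than 0.5 above their mean (12.8%, against 9.30% of circRNA probes). That array was the lowest of the 6 for 17 of the 39 probes, for which no circRNA share was computed. The nervous system probes in the set that was low on it were Apoe, Mbp, Chgb and Kcnn2.

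On control replicate 1, 7 of 39 probes lay more than 0.5 below their mean and 0 above it (17.9% and 0%, against 5.89% and 2.39% of circRNA probes). They were A_51_P284125, E2f1, Hspb7, A_51_P237746, Lhx1, Duox1 and Olfr1307. Of these, A_51_P284125, E2f1, Hspb7 and Olfr1307 were among the 5 that were high on cocaine CPP replicate 4. On cocaine CPP replicate 2, Cav2, Kcnn2, Lhfp and Mbp lay 1.07, 1.02, 0.95 and 0.52 above their means (10.3%, against 5.28% of circRNA probes), and these 4 were all in the low set of cocaine CPP replicate 4. A_51_P237746, with a deviation of -0.65, was the 1 low probe of that array (2.56%, against 7.47% of circRNA probes). The deviations of a probe over the 6 arrays sum to 0, so these sets are not independent of each other.

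Some probes did not follow the brightness of the arrays. The circRNA upper quartile differed by 2.90 times between the brightest and the dimmest array. The unscaled signal of the 39 linear probes differed by 1.504 times for Gsdmd to 8.62 times for Kcnn2, with a median of 3.16. Under 2 times lay Gsdmd and Ppara (5.13% of 39, against 8.08% of the circRNA probes). MM9NEGATIVE015, MM9NEGATIVE016 and MM9NEGATIVE017 differed by 1.45, 1.43 and 1.33 times. A_51_P237746 differed by 2.06 times, and Rps4l, above background on 5 arrays, by 1.63 times. For such probes the relative scale turns the brightness of the array into a difference, and cocaine CPP replicate 3, the dimmest array, gave the highest relative value of Gsdmd, -1.82, and of Rps4l, -3.69. Rps4l was not above background on that array.

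The next comparison asked whether the residual linear signal differed between cocaine CPP and control. No linear probe passed the test. In the limma fit over 13000 probes, 0 of the 47 linear probes tested had an adjusted p under 0.05, where the background was 0% of all probes, and 0 had an unadjusted p under 0.05, where the background was 0.777%. The methods' t-test, run on identical values, also gave 0 of 47 at an unadjusted p under 0.05, where the background was 1.45%. The adjusted p was 0.999637 for all 47 probes. The other 3 probes, Tyr, A_51_P213099 and Bambi, were not tested because they were above background on fewer than 3 arrays.

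The differences were small beside the spread between arrays. Cocaine CPP minus control ranged from -0.67 to 0.56 log2, with a standard error of 0.19 to 0.53 (median 0.30). For 39 of 47 probes the difference was smaller than the SD within groups. By sign 28 were higher and 19 lower in cocaine CPP (40.4% lower, where 54% of all probes tested were lower), with a median of 0.046 against -0.022 over all probes. Without control replicate 1 the share lower was 55.3%, against 54.8% of all probes. For a single probe an exact test over 3 against 3 arrays cannot go below p = 0.1. A missed threshold does not show that the groups were alike.

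The lowest p was that of Dnajc11, at -0.67 ± 0.33 log2 (SE, 3 arrays a group), with an unadjusted p of 0.0729 in the limma fit and an adjusted p of 0.999637. Its groups did not overlap, and its lowest value, on cocaine CPP replicate 3, was not above background. Without that array the difference was -0.32 (unadjusted p of 0.235 in the limma fit). Acaa2, at -0.20 ± 0.20 and at -0.12 without control replicate 1, was the other probe whose groups did not overlap, with -3.12 on the nearest array of each group. These 2 of 47 probes are 4.26%, where 3.59% of all probes tested had no overlap. On the median signal without background subtraction both differences were near 0, at 0.023 for Dnajc11 and 0.029 for Acaa2.

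The highest differences were those of E2f1, 0.56 ± 0.34, Rps4l, 0.53 ± 0.35, and Hspb7, 0.49 ± 0.35. None passed, with unadjusted p of 0.135, 0.170 and 0.193 in the limma fit. Without control replicate 1 the difference was 0.25 for E2f1 and 0.20 for Hspb7, and without cocaine CPP replicate 4 it was 0.34 and 0.23. For Rps4l it was 0.28 without cocaine CPP replicate 3 and 0.26 without control replicate 5. The largest differences with 1 array left out were 0.77 for E2f1, 0.80 for Rps4l and 0.73 for Hspb7. For E2f1 and Hspb7 control replicate 1 was the lowest array, and for Rps4l the highest relative value, on cocaine CPP replicate 3, was not above background. Gsdmd differed by 0.43 ± 0.37, or 0.10 without cocaine CPP replicate 3, and A_51_P444920 by 0.32 ± 0.23, or 0.18 without cocaine CPP replicate 4. Without cocaine CPP replicate 2 these were larger, at 0.76 and 0.48. Besides Dnajc11 and Acaa2, the probes with a lower mean in cocaine CPP among the 10 smallest p were Uhrf1bp1l at -0.38 ± 0.33, Carhsp1 at -0.38 ± 0.23 and Gpi1 at -0.32 ± 0.27. Without cocaine CPP replicate 4 these were -0.13, -0.25 and -0.071, and without control replicate 6 Uhrf1bp1l was also at -0.13. Other arrays left out moved them away from 0. Uhrf1bp1l was at -0.63 without control replicate 5, Carhsp1 at -0.54 without cocaine CPP replicate 3 and Gpi1 at -0.54 without cocaine CPP replicate 2.

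For the glial and housekeeping messages the difference between groups was smaller than its standard error. This held for all but 10 of the 47 probes tested. Apoe was at 4.06 ± 0.43 in cocaine CPP and 4.24 ± 0.16 in control (SD, n = 3 each), a difference of -0.18 ± 0.26 (SE). Mbp was at 3.10 ± 0.68 and 3.14 ± 0.094, a difference of -0.037 ± 0.34. Actb was at 3.14 ± 0.51 and 3.38 ± 0.37, a difference of -0.25 ± 0.32. For all 3 the cocaine CPP arrays were more spread than the control arrays. Over the circRNA probes the cocaine CPP arrays were less alike, with Pearson's r of log2 signal of 0.956 to 0.961, against 0.978 to 0.983 between control arrays.

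Slide row 1 held 1 cocaine CPP array and all 3 controls, so within a row the comparison is that of cocaine CPP replicate 2 alone. Against the controls of its row it gave 0.19 for E2f1, 0.023 for Hspb7, 0.050 for Rps4l and -0.33 for Dnajc11, all smaller than with 3 cocaine CPP arrays. The sign turned for Gsdmd, at -0.23, Gpi1, at 0.12, and A_51_P444920, at -0.013. The largest differences were 1.11 for Lhfp, 1.11 for Cav2 and 0.97 for Kcnn2. No row held cocaine CPP replicates 3 and 4 together with a control, so row and group cannot be told apart for them.

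In some other settings a few linear probes had an unadjusted p under 0.05. Quantile normalization gave 1 of 47 linear probes, Dnajc11, where 0.838% of all probes passed. Slide row as a covariate, which sets 1 cocaine CPP array against 3 and takes its spread from the others, gave 2, Cav2 and Kcnn2, where 2.15% passed. Without cocaine CPP replicate 2 there were 3, where 4.07% passed, and without cocaine CPP replicate 4 there were 2, where 3.41% passed. The 3 were Dnajc11, Kcnn2 at -0.66 ± 0.23 and Cep41 at -1.08 ± 0.40, and Dnajc11 and Cep41 were not above background on cocaine CPP replicate 3, 1 of the 2 arrays left. The 2 were Dnajc11 and Lhfp at 0.95 ± 0.22. In limma the adjusted p of these probes was 0.913 or higher. For Kcnn2 the difference was -0.12 with all 6 arrays, and the 0.97 rests on cocaine CPP replicate 2 alone.

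The brightness of the linear set within an array was also compared, as a description. The median log2 signal of the 50 linear probes minus that of the circRNA probes was -0.20, -0.47 and -0.68 in the cocaine CPP mice, against -0.84, -0.97 and -0.78 in the controls. The means were -0.45 ± 0.24 and -0.86 ± 0.096 (SD, n = 3 each), a difference of 0.41 with no overlap between groups. The offset depended on how the probes were summarised. With the mean over probes the difference was 0.058, and with the 39 linear probes above background on all 6 arrays it was -0.014, and in both cases the groups overlapped. On the median signal without background subtraction it was 0.29, again with overlap, so the separation of the groups held in 1 of these 4 ways of summarising.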

How the data were processed

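The authors deposited 1-colour scanner output of Feature Extraction 11.0.1.1, in which spots carry 3 kinds of intensity value: the raw pixel median, its local background, and a signal processed by background subtraction. RNA was RNase R-digested and random-primed. The authors also deposited lists of circRNAs with their own fold changes and p-values and 24 per-sample columns, which hold no linear probe and were not used.

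Spots flagged as outliers (94 of 3000 linear spots) were dropped. The processed signal of a linear probe was the median over its spots. Values were log2 of it minus the 75th percentile of the array's circRNA probes, which removes any change common to all probes; background subtraction widens differences of dim probes. The 13000 probes (47 of them linear) that 3 or more arrays showed well above background entered a limma 3.58.1 fit (R 4.3.3; lmFit, eBayes). P-values were two-sided and Benjamini-Hochberg adjusted at a threshold of 0.05. The fit was tested on simulated data. Groups came from the sample labels, and the design text counts mice, 1 per array.

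Symbols came from the GRCm38.p6 RefSeq gene table by accession; its coordinates were not used, since the headers name an older build. Members and marker lists were chosen with earlier results of these data known, and the role groups after values were seen. Probes named in full were the 10 brightest and 5 dimmest, the 10 lowest p, the 5 largest SDs and marker list members; the others follow by role. The values of 1 probe are not reported here. Alternatives were other scalings and backgrounds, filters, spot summaries, variance models, the methods' t-test, slide row and leaving out each array. Summaries used Python 3.11.15.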

Additional observations from a re-analysis of the deposited data

Results flagged for a closer look

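Among probes outside the comparisons, MM9NEGATIVE017 gave signal on every array, and its lowest cocaine CPP signal, 43.06 scanner units, was above its highest control signal, 40.81 units, on the unscaled processed signal. Of 10983 circRNA probes above background on all 6 arrays, 9 (0.0819%) had that order, but the unscaled circRNA signal moves with the brightness of the arrays, lowest on cocaine CPP replicate 3, so this share is no measure of how unusual the order of MM9NEGATIVE017 is. Relative to the circRNA upper quartile it read -2.64, -1.27 and -2.53 (log2) against -2.70, -3.15 and -2.08, and the groups overlapped, as did those of MM9NEGATIVE015 and MM9NEGATIVE016.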

How the results depend on the processing

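No linear probe passed adjustment in any setting run, leaving out each array in turn included (0 to 0). The number under 0.05 unadjusted was 0, and became 1 with quantile normalization (Dnajc11), 2 with slide row as a covariate (Cav2, Kcnn2) and 0 to 3 when an array was left out. Leaving out cocaine CPP replicate 2 gave the 3 (Cep41, Kcnn2, Dnajc11), and leaving out cocaine CPP replicate 4 gave 2 (Dnajc11, Lhfp). Of all probes tested, 4.07% and 3.41% passed without these arrays, 0.838% with quantile normalization and 2.15% with slide row. The median difference was -0.22 with no scaling between arrays, where 85.1% of linear and 87.9% of all probes were lower and the median of all probes was -0.29, and -0.044 to 0.13 when an array was left out. The share of linear probes lower was 21.3% on the median signal without background subtraction (38.9% of all probes), 27.7% with slide row (48.1%), 53.2% without cocaine CPP replicate 2 (58.2%) and 55.3% without control replicate 1 (54.8%). Signs reversed for Dnajc11 (0.0234) and Acaa2 (0.0289) on the median signal without background subtraction, and for A_51_P444920 (-0.0130), Gsdmd (-0.232) and Gpi1 (0.119) with slide row. The cause was not tested. In the other settings run, and with each array left out, the 10 probes with the lowest p kept their sign, except that Dnajc11, Rps4l and A_51_P444920 had no value where a probe had to be above background on all 6 arrays. The count above background on all arrays was 37 with all usable spots, 27 against the mean plus 3 SD of negative control spots, 20 against the highest negative control spot and 18 against the highest MM9NEGATIVE probe, the latter chosen after seeing the data. The 27 and the 20 were also the counts on control replicate 1 alone, whose highest negative control spot read 104.8 units. Keeping the outlier spots, also chosen after seeing the data, changed no call and no sign of the 10 probes with the lowest p. The offset of linear from circRNA probes was 0.0576 with the mean over probes, -0.0138 with probes above background on all 6 arrays and 0.29 to 0.53 when an array was left out. Over 5 arrays at a time the median SD was 0.27 to 0.40, and it was lowest, 0.27 against 0.28 for circRNA probes, without cocaine CPP replicate 4. No paired analysis was possible because cocaine CPP (2, 3 and 4) and control (1, 5 and 6) have no number in common. Slide or scan as a block was not run, since all arrays were on 1 slide and 1 scan, and normexp used the median signal because the files give no mean.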
